A study of Mus musculus with 9 samples.

Results

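The transcripts described here are those of 10 genes of the BCL2 family of apoptosis regulators, taken by gene name from a table of 21951 genes. They are the 5 anti-apoptotic genes Bcl2, Bcl2l1, Bcl2l2, Mcl1 and Bcl2a1b and the 5 pro-apoptotic genes Bcl2l11, Bak1, Bid, Bad and Bmf. All 10 passed the filter on low counts, as did 11295 genes in all.

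The BCL2 family decides whether the outer mitochondrial membrane is opened during apoptosis. Its anti-apoptotic proteins hold the membrane closed by binding pro-apoptotic relatives. BH3-only proteins sense stress and occupy those binding grooves or activate the effectors directly, and effectors such as BAK1 form the pores that release cytochrome c. In microglia, the resident macrophages of the brain, the same proteins set the threshold for death after injury, including DNA damage.

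Transcripts were counted by RNA sequencing of BV2, an immortalized wild-type line of mouse microglia, with 3 libraries in each of 3 groups. Triol-treated irradiated cells received 5α-androst-3β, 5α, 6β-triol at 10 µM and then X-rays at 10 Gy, with 30 minutes between them. Irradiated cells received vehicle and the same 10 Gy dose, and control cells received vehicle and no radiation. Vehicle was 20% HP-β-CD per the labels' protocols, and the labels of the triol group do not name it. The treatment field of the triol libraries names the compound as 6β, 7β and 8β in replicates 1, 2 and 3, while their titles and the protocol all give 6β. No group received triol without radiation, so each difference involving triol is one among irradiated cells or one against unirradiated cells. How long after irradiation the RNA was taken is not stated in the labels. The labels do not say whether replicates were separate cultures, so the p-values measure only how far these libraries spread, and that spread may be technical. A single cell line further limits the groups as a model of microglia in tissue.

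Libraries held 17230866 to 18944051 counts in triol-treated irradiated cells, 13879062 to 15192203 in irradiated cells and 14118475 to 17705424 in control cells. The summed level of 10 microglia and macrophage markers was 2004 to 2051 CPM (counts scaled to a common library size) in triol-treated irradiated cells, 1993 to 2061 in irradiated cells and 2617 to 2786 in control cells. All 10 markers were detected. In irradiated against control cells 9 of them were called lower (edgeR adjusted p under 0.05), beside 22.2% of all tested genes called downward. The other marker, Aif1, had a log2 fold change of -0.13 and did not pass. The summed level of 10 hepatocyte markers, led by Alb, was 8.40 to 8.49 CPM in triol-treated irradiated cells, 0.915 to 2.67 in irradiated cells and 1.11 to 2.63 in control cells. Endothelial and fibroblast markers summed to 2.16 to 3.10 CPM in triol-treated irradiated cells, 1.24 to 2.74 in irradiated cells and 0.172 to 0.289 in control cells. Cldn5 was at 0 throughout, and Pecam1 led this sum, with means of 1.13, 1.10 and 0.159 CPM in the same order. The 5 astrocyte markers, with Aqp4 at 0 throughout, summed to 1.502 to 2.05 CPM in triol-treated irradiated cells, 1.96 to 2.19 in irradiated cells and 0.326 to 0.866 in control cells. Most of the astrocyte sum was Slc1a2, with means of 1.18, 1.54 and 0.499 CPM in the same order. Neuron markers (6 genes) summed to 0.636 to 1.42 CPM in triol-treated irradiated cells, at most 0.205 in irradiated cells and 0.0651 to 0.744 in control cells. Lymphocyte markers (5 genes, Cd3e and Ms4a1 at 0) reached at most 1.26 CPM, and oligodendrocyte markers (5 genes, Olig2 at 0) lay between 5.16 and 7.77 CPM in every group. The part of these shifts in the values below was not tested. In bulk RNA, fewer cells of a kind and less RNA per cell cannot be told apart.

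Promoter windows were available in the RefSeq table (build GRCm38.p6) for all 10 genes, as 16 windows that run from 250 bases before to 50 after a gene start. The windows of Bcl2, Bcl2l1 and Bcl2l11 are shown because these genes had the largest changes that passed the test between irradiated and control cells. For genes with several starts, the outermost one is shown. Capitals mark the SP1 box GGGCGG on either strand for Bcl2 and the FOXO site GTAAACA for Bcl2l11, and the Bcl2l1 window has no capitals because none of the motifs searched was in it.
Bcl2, chr1:106714241-106714540, minus strand: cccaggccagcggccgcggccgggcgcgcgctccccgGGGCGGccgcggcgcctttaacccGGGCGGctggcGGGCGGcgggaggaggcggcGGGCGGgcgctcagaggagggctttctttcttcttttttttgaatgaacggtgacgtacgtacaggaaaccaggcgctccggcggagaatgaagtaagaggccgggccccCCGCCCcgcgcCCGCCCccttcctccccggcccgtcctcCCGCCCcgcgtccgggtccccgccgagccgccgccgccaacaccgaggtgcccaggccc
Bcl2l1, chr2:152831679-152831978, minus strand: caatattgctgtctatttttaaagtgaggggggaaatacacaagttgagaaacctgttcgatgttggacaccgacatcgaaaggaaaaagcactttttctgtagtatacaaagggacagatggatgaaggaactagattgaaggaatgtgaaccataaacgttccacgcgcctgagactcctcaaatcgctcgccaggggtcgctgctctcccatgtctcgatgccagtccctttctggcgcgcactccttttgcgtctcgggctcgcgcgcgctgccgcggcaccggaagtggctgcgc
Bcl2l11, chr2:128125788-128126087, plus strand: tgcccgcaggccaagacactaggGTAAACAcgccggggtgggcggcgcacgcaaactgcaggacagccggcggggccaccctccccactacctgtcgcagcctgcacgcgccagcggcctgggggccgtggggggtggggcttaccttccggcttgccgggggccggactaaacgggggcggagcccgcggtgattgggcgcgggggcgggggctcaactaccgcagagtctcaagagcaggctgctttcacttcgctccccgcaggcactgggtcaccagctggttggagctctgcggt

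The Bcl2 window held 7 matches to GGGCGG, counting both strands, and the Bcl2l11 window held 3 beside its single FOXO match. None of these matches overlapped another, and the G and C content was 76% in the Bcl2 window, 52.3% in the Bcl2l1 window and 71% in the Bcl2l11 window. GGGCGG was present in 9 of the 16 windows of the family, against 35.7% of 32851 windows of the same length over the mouse genes of the table. GTAAACA, the letters bound by FOXO factors that are known to drive Bcl2l11 (Bim) in other cells, was in 1 of the 16 windows, against 3.65% of all windows. The NF-kB motif GGGANNNNCC was in 5 of the 16 and in 20.7% of all, and the PU.1 motif GAGGAAGT was in 3 of the 16, in Bcl2a1b, Bak1 and Bad, and in 3.20% of all. No member window held the ISRE GAAANNGAAA, the GAS element TTCNNNGAA, the CRE TGACGTCA, the E-box CACGTG or the p53 element. Over all windows these were found in 3.44%, 8.30%, 1.79%, 7.15% and 0.0731%. The motifs were chosen after the values were seen and a match describes letters only.

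Mcl1, whose short-lived product protects the membrane in many myeloid cells, was by far the most abundant member per unit length. Its level was 210.1 ± 1.84 RPKM (CPM per kilobase of exon) in triol-treated irradiated cells, 204 ± 6.69 in irradiated cells and 229 ± 1.22 in control cells (SD, n = 3 each). It made up between 84.2% and 86.0% of the summed anti-apoptotic level in every library. Bcl2l1, which encodes BCL-XL, followed it among the anti-apoptotic genes at 26.9 ± 0.551 RPKM in triol-treated irradiated cells, 24.3 ± 0.746 in irradiated cells and 31.1 ± 0.399 in control cells. Bcl2l2, which encodes BCL-W, lay at 6.66 RPKM in triol-treated irradiated cells, 6.30 in irradiated cells and 6.38 in control cells. Bcl2 itself was a minor transcript, at 2.14 ± 0.107 RPKM in triol-treated irradiated cells, 2.06 ± 0.188 in irradiated cells and 3.42 ± 0.129 in control cells. The low level of Bcl2 placed it among the 3 least abundant members in every group, with Bmf and Bcl2a1b.

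The 5 pro-apoptotic members were more evenly divided. Over all exons, the most abundant of these 5 were the effector Bak1 and the BH3-only gene Bid. The product of Bid is cut by caspase 8 to link death receptors to mitochondria. Outside the 10 members, the pro-apoptotic genes Pmaip1 and Bax stood higher than both per unit length. Pmaip1 and Bax lay at 40.1 and 30.6 RPKM in triol-treated irradiated cells, 40.1 and 30.4 in irradiated cells and 33.3 and 29.2 in control cells. Bid made up 35.0% of the summed pro-apoptotic level in triol-treated irradiated cells, 35.0% in irradiated cells and 33.3% in control cells, while Bak1 made up 30.7% with triol and radiation, 32.0% with radiation and 35.3% in control cells. Bcl2l11, the BH3-only gene for BIM, contributed 21.7% in triol-treated irradiated cells, 20.7% in irradiated cells and 17.7% in control cells. Bad and Bmf, BH3-only genes tied to growth factor signalling and to detachment stress, contributed at most 10.4% and 4.78% in any library. In order of mean level, control cells ran Mcl1, Bcl2l1, Bak1, Bid, Bcl2l11, Bcl2l2, Bad, Bcl2, Bmf and Bcl2a1b. The library ranges of Bak1 and Bid overlapped there, and so did those of Bcl2l2 and Bad. In irradiated cells Bid stood above Bcl2l1 with overlapping ranges and Bcl2 was last, overlapping with Bcl2a1b. The order depended on length for Bcl2l11, which ranked 5 in each group over all its exons. With the median length of its coding transcripts in place of all exons, a choice added after seeing the data, it ranked 3 in triol-treated irradiated cells, 2 in irradiated cells and 3 in control cells. Its share of the pro-apoptotic sum was then the largest by mean, at 35.4% in triol-treated irradiated cells, 34.1% in irradiated cells and 29.9% in control cells. Bid then held 28.7% with triol and radiation, 29.1% with radiation and 28.2% in control cells, with ranges that overlapped those of Bcl2l11 in control cells.

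**Figure D1:**
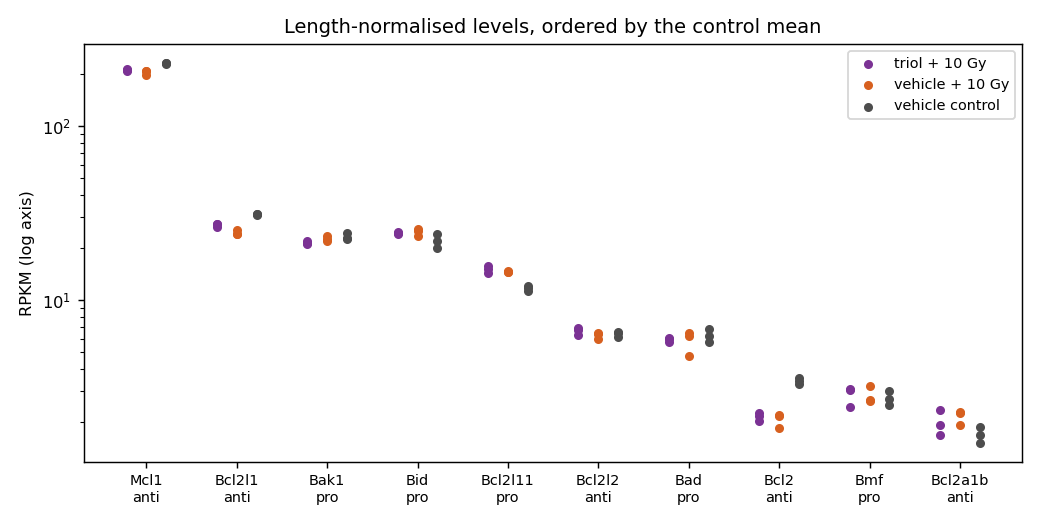
Length-normalised level in RPKM on a log axis for the 10 genes, ordered by their mean in control cells, with 1 point per library and the 3 groups side by side. Mcl1 lies between 196 and 230 RPKM in all libraries, while Bcl2, Bmf and Bcl2a1b all lie at the low end, and the control libraries of Bcl2 stand above those of both irradiated groups.

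With radiation alone, 3 of the 5 anti-apoptotic transcripts fell, Bcl2, Bcl2l1 and Mcl1, and 2 of the 5 pro-apoptotic ones rose, Bcl2l11 and Bid. The call was an adjusted p under 0.05 from edgeR's quasi-likelihood test in irradiated against control cells. The other 5 members did not pass the test. These 5 calls among 10 genes stand beside a background of 44.3% of all tested genes called in this comparison, 22.1% upward and 22.2% downward, so the number of calls is close to that of genes in general. The median log2 fold change of the members was -0.03, against 0.01 over all tested genes, and their median absolute change was 0.17, against 0.15.

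Bcl2, the founding anti-apoptotic gene of the family, which lies at chr1:106538178-106714274 on the minus strand (GENCODE M21 on GRCm38), had the largest change among the members. It measured 20.0, 19.7 and 16.9 CPM in the 3 irradiated libraries, against 32.5, 30.1 and 31.3 CPM in control libraries. Every irradiated library lay below every control library. Its log2 fold change was -0.73 with a standard error (SE) of 0.0785 and a 95% interval of -0.89 to -0.57, and Bcl2 fell by 39.8% (edgeR adjusted p = 2.70e-10). That change was larger in size than those of 93.4% of tested genes. Bcl2l1, at chr2:152780668-152831728 on the minus strand, measured 109, 116 and 110.2 CPM in irradiated libraries, against 143, 144 and 140.5 CPM in control libraries. The groups did not overlap, and Bcl2l1 fell by 21.8% (log2 fold change -0.35, SE 0.0394, edgeR adjusted p = 6.56e-10). Mcl1, at chr3:95658788-95663176 on the plus strand, measured 670.3, 711 and 708 CPM in irradiated libraries, against 786, 778 and 784 CPM in control libraries. All irradiated libraries were again the lower ones, and Mcl1 fell by 10.97% (log2 fold change -0.17, SE 0.0289, edgeR adjusted p = 6.74e-06). The change of Mcl1 was larger in size than that of 53.4% of tested genes.

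The remaining anti-apoptotic members did not pass the test. Bcl2l2 measured 29.0, 28.6 and 26.7 CPM in irradiated libraries, against 27.4, 28.9 and 29.1 CPM in control libraries. Those ranges overlapped, and the 95% interval of the log2 fold change ran from -0.17 to 0.12. Bcl2l2 shares 13.3% of its exonic bases with Gm20521 on the same strand. Bcl2a1b, a macrophage and lymphocyte survival gene known as a target of NF-kB, measured 1.85, 1.86 and 1.57 CPM in irradiated libraries, against 1.52, 1.37 and 1.24 CPM in control libraries. The groups did not overlap, but the gene had only 19 to 33 reads per library over all groups, and its log2 fold change of 0.35 had a 95% interval of -0.21 to 0.92 (edgeR adjusted p = 0.321). Bcl2a1b is one of several near-identical copies and shares 49.1% of its exonic bases with Gm29094 on the same strand, so its count is uncertain as a single gene. With the reads of Bcl2a1a, Bcl2a1b and Bcl2a1d summed, an alternative added after seeing the data, there were 75, 94 and 74 reads in irradiated libraries, against 61, 75 and 55 in control libraries. The log2 fold change of that sum was 0.44, with a 95% interval of 0.10 to 0.77, and it passed the test (edgeR adjusted p = 0.0297).

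Among the pro-apoptotic members, Bcl2l11 rose the most. The gene lies at chr2:128126038-128162547 on the plus strand, and its product BIM binds all anti-apoptotic relatives and can activate the effectors. It measured 117, 117 and 117 CPM in irradiated libraries, against 96.2, 90.0 and 94.2 CPM in control libraries. The irradiated libraries spanned 116.7 to 117.3 CPM, all above the control range. The log2 fold change was 0.32 (SE 0.0428, edgeR adjusted p = 3.58e-08), a rise of 25.2%, larger in size than the change of 78.5% of tested genes. Bid, at chr6:120891930-120916853 on the minus strand, measured 83.2, 90.7 and 88.7 CPM in irradiated libraries, against 84.8, 77.7 and 70.6 CPM in control libraries. Irradiated replicate 1 lay below control replicate 1, so the groups overlapped. The log2 fold change was 0.17 (SE 0.0508, edgeR adjusted p = 0.00473), and without control replicate 3 it was 0.11 and no longer passed (edgeR adjusted p = 0.093). The exons of Bid overlap those of Bcl2l13 on the opposite strand over 17.7% of their bases, and whether the counting used strand is not known from the labels.

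The effector Bak1 and the BH3-only genes Bad and Bmf overlapped between irradiated and control cells and did not pass the test. Bak1 measured 55.9, 54.2 and 52.9 CPM in irradiated libraries, against 58.6, 54.1 and 54.8 CPM in control libraries, with a log2 interval of -0.15 to 0.07 for the difference. Bad measured 16.6, 15.99 and 12.3 CPM in irradiated libraries, against 15.9, 17.4 and 14.7 CPM in control libraries. The third irradiated library was the lowest of the 9 for Bad, and the log2 interval ran from -0.30 to 0.10. Bmf measured 16.9, 14.1 and 13.8 CPM in irradiated libraries, against 13.1, 14.1 and 15.8 CPM in control libraries, with an interval of -0.16 to 0.26. Bak1 and Bad overlap genes on the opposite strand over 25.5% and 20.5% of their exonic bases. In total 5 of the 10 members had groups that did not overlap, 3 lower and 2 higher in irradiated cells, beside 50.7% of all tested genes. The 2 higher ones were Bcl2l11 and Bcl2a1b.

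**Figure D2:**
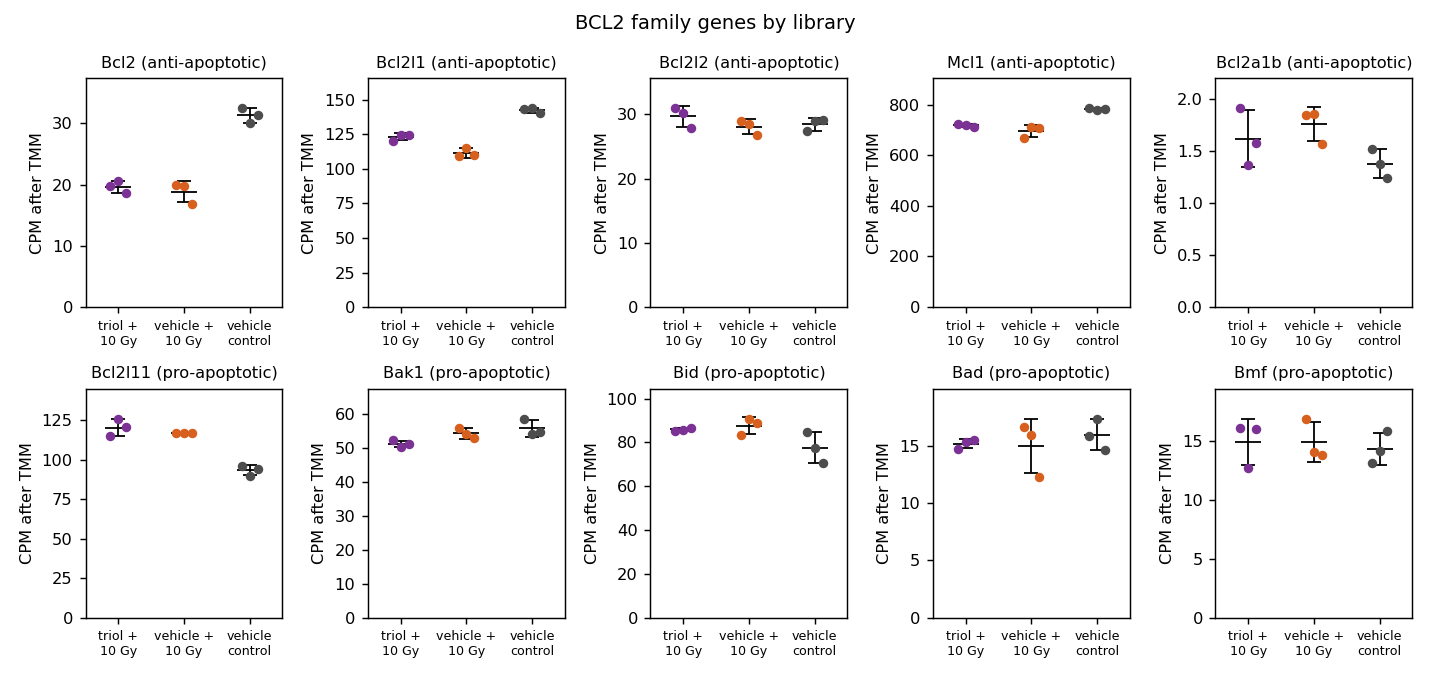
Level in CPM after TMM normalisation for each of the 10 genes, in 1 panel per gene on an axis that starts at 0. Points are libraries, the long bar is the mean and the error bars are 1 SD over 3 libraries. Both irradiated groups lie below control cells for Bcl2, Bcl2l1 and Mcl1 and above them for Bcl2l11.

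Triol before irradiation was compared with irradiation alone to ask whether the compound altered these transcripts. No member passed the test in triol-treated irradiated against irradiated cells (0 of 10 with edgeR, where 0.106% of all tested genes were called, 0.0974% upward and 0.00885% downward). At an unadjusted edgeR p under 0.05 there was 1 member, Bcl2l1, beside 865 of all 11295 tested genes. DESeq2 called 0 of the 3 members to which it gave an adjusted p, and limma-voom called 0 of 10. The median log2 fold change of the members was 0.03, against 0.00 over all tested genes, and their median absolute change was 0.05, as in all tested genes.

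Bcl2l1 had the largest difference of any member here. It measured 120.4, 125 and 125 CPM in triol-treated irradiated libraries, against 109, 116 and 110.2 CPM in irradiated libraries. All triol-treated libraries lay above the irradiated range and below the control range. The log2 fold change was 0.14 with a 95% interval of 0.07 to 0.22 (unadjusted p = 0.000662, edgeR adjusted p = 0.178), so the difference did not pass after adjustment. Bak1 was the other member without overlap, at 52.3, 50.4 and 51.1 CPM in triol-treated irradiated libraries, against 55.9, 54.2 and 52.9 CPM in irradiated libraries. The interval of its log2 fold change of -0.08 ran from -0.19 to 0.02 (edgeR adjusted p = 0.763). These 2 genes without overlap among 10 stand beside 13.2% of all tested genes.

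The other genes that changed with radiation had log2 intervals for triol that included 0. Bcl2 measured 19.7, 20.5 and 18.6 CPM in triol-treated irradiated libraries, against 20.0, 19.7 and 16.9 CPM in irradiated libraries, with a log2 interval of -0.11 to 0.22. The ranges overlapped, and both stood well under the control libraries. Mcl1 measured 724, 719 and 711 CPM in triol-treated irradiated libraries, against 670.3, 711 and 708 CPM in irradiated libraries, with an interval of -0.01 to 0.10. Bcl2l11 measured 115, 126 and 120.5 CPM with triol, against 117 CPM in each irradiated library, with an interval of -0.04 to 0.13. Both kinds of library overlapped for Mcl1 and Bcl2l11. Bid measured 85.4, 85.7 and 86.8 CPM with triol, against 83.2, 90.7 and 88.7 CPM in irradiated libraries, with an interval of -0.13 to 0.07. For Bcl2l2, Bad and Bmf the intervals were -0.06 to 0.22, -0.17 to 0.23 and -0.20 to 0.21. Bcl2a1b had the widest interval, -0.65 to 0.41. A p that misses the threshold does not show equal levels, and the intervals give the sizes of difference that these libraries allow.

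Triol-treated irradiated cells were then set against control cells. The 5 calls were the ones given by irradiated against control cells, with 3 anti-apoptotic genes lower and 2 pro-apoptotic genes higher, and all 10 members had the same call in both. The 2 comparisons share their control libraries. The background here was 43.3% of tested genes called, 21.5% upward and 21.7% downward. Bcl2 fell by 37.3% (log2 fold change -0.67, SE 0.0755, edgeR adjusted p = 8.29e-10), beside a log2 fold change of -0.73 in irradiated cells. Bcl2l1 fell by 13.5% (log2 fold change -0.21, SE 0.0382, edgeR adjusted p = 1.85e-05), beside a log2 fold change of -0.35 in irradiated cells. Mcl1 fell by 8.22% (log2 fold change -0.12, SE 0.0287, edgeR adjusted p = 0.000488). Bcl2l11 rose by 29.0% (log2 fold change 0.37, SE 0.0419, edgeR adjusted p = 1.33e-09). For these 4 genes every triol-treated library lay outside the control range.

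Bid rose by 10.8% in triol-treated irradiated against control cells (log2 fold change 0.15, SE 0.0499, edgeR adjusted p = 0.0144), with no overlap between the groups. The call was lost without control replicate 3 (edgeR adjusted p = 0.236) and without triol replicate 3 (edgeR adjusted p = 0.0618). Bak1 was 8.10% lower with all libraries below the control range, and its log2 fold change of -0.12 (95% interval -0.23 to -0.01) missed the threshold (edgeR adjusted p = 0.0613). It passed in 5 of the alternatives run, the lowest adjusted p being 0.0438 without control replicate 3. Bcl2l2, Bad, Bmf and Bcl2a1b overlapped between the groups, with log2 fold changes of 0.06, -0.07, 0.06 and 0.23 and edgeR adjusted p of 0.519 to 0.690. The summed Bcl2a1 copies had a log2 fold change of 0.33 and did not pass (edgeR adjusted p = 0.0995). In all, 6 of the 10 members had groups that did not overlap, beside 51.1% of all tested genes.

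**Figure D3:**
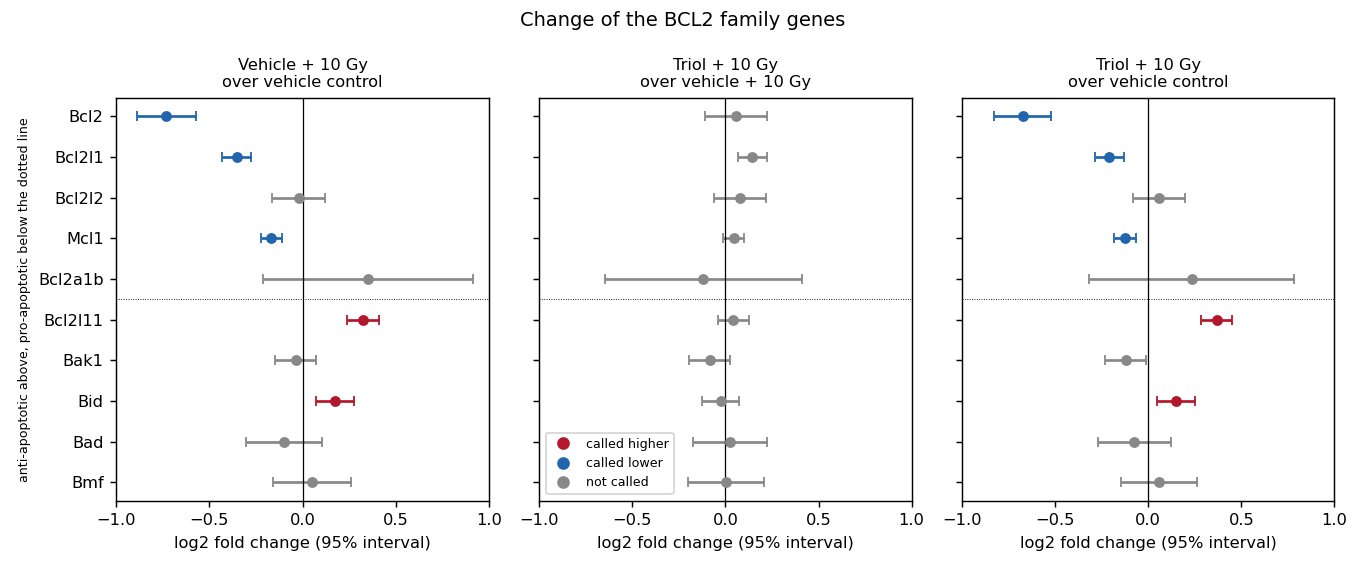
Log2 fold change with its 95% interval for the 10 genes in the 3 comparisons, with anti-apoptotic genes above the dotted line and pro-apoptotic genes below it. Blue and red mark genes that passed the test downward and upward. The same 5 genes are coloured in both comparisons with control cells, none is coloured in triol-treated irradiated over irradiated cells, and the interval of Bcl2a1b is the widest in each panel.

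The balance of the sides was described as the summed RPKM of the 5 anti-apoptotic genes over that of the 5 pro-apoptotic genes, with no test, since the genes were chosen with earlier results known. It was 3.62, 3.59 and 3.52 in triol-treated irradiated libraries, 3.25, 3.41 and 3.50 in irradiated libraries and 3.96, 4.16 and 4.30 in control libraries. Control libraries were the highest, and the triol-treated libraries lay above the irradiated ones by a narrow margin. That separation was lost with the median coding transcript length, where the ratio was 2.89 to 2.99 in triol-treated irradiated libraries and 2.69 to 2.897 in irradiated libraries. It was also lost with the mean of log2 levels in place of sums, where the ratio was 0.992 to 1.08 in triol-treated irradiated libraries and 0.979 to 1.03 in irradiated libraries. On the log2 scale the irradiated mean was 0.29 under the control mean, and the triol-treated irradiated mean was 0.08 above the irradiated mean and 0.21 under the control mean. Without irradiated replicate 1, the difference of triol-treated irradiated from irradiated cells was 0.05. Most of the anti-apoptotic sum is Mcl1. Without Mcl1, the ratio was 0.544 in triol-treated irradiated cells, 0.494 in irradiated cells and 0.649 in control cells, and the log2 difference of irradiated from control cells was -0.39. The anti-apoptotic sum was 246 to 250 RPKM in triol-treated irradiated libraries, 231 to 244 in irradiated libraries and 271 to 273 in control libraries. The pro-apoptotic sum was 68.9 to 69.8 RPKM in triol-treated irradiated libraries, 68.9 to 71.5 in irradiated libraries and 63.1 to 68.9 in control libraries, with the highest control library at the level of the lowest irradiated one.

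Ratios between the transcripts of binding partners within a library do not depend on how libraries are scaled to each other. Their size does depend on the length used for each gene, though their fold difference between groups does not. In irradiated cells Bcl2l11 and Bcl2 averaged 14.6 and 2.06 RPKM over all exons. With the median coding transcript length they averaged 46.96 and 3.76. Only RNA was measured, so these ratios do not give the relative amounts of the proteins. The ratio of Bcl2l11 to Bcl2 was 6.65, 6.99 and 7.40 in triol-treated irradiated libraries, 6.70, 6.75 and 7.90 in irradiated libraries and 3.38, 3.41 and 3.43 in control libraries. Irradiated cells had 2.08 times the control ratio, the largest difference among the 8 ratios computed, while both irradiated groups overlapped. Bcl2l11 to Mcl1 was 0.0714 ± 0.00352 in triol-treated irradiated cells, 0.0715 ± 0.00259 in irradiated cells and 0.0509 ± 0.00146 in control cells, 1.41 times as high in irradiated as in control cells. Bmf to Bcl2 was 1.34 ± 0.227 in triol-treated irradiated cells, 1.38 ± 0.121 in irradiated cells and 0.801 ± 0.0891 in control cells. Bmf itself did not pass the test in any comparison, while Bcl2 did in both comparisons with control cells.

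The ratios over Bcl2l1 separated all 3 groups for Bid. Bid to Bcl2l1 was 0.916, 0.887 and 0.898 in triol-treated irradiated libraries, 0.985, 1.02 and 1.04 in irradiated libraries and 0.765, 0.697 and 0.649 in control libraries. The triol-treated libraries lay between the other groups without overlap. Neither gene passed the test in triol-treated irradiated against irradiated cells (edgeR adjusted p = 0.944 for Bid and 0.178 for Bcl2l1). How often other pairs of genes separate in this way was not computed. The ratios of Bid, Bak1 and Bad share Bcl2l1 as denominator, so they are not separate results. Bak1 to Bcl2l1 was 0.827, 0.769 and 0.780 in triol-treated irradiated libraries, 0.977, 0.894 and 0.914 in irradiated libraries and 0.779, 0.716 and 0.743 in control libraries. It was lower with triol than with radiation alone, by a factor of 0.854, and overlapped with control cells. Bak1 to Mcl1 was 0.101 ± 0.00169 in triol-treated irradiated cells, 0.111 ± 0.00668 in irradiated cells and 0.101 ± 0.00396 in control cells. Bad to Bcl2l1 averaged 0.221 in triol-treated irradiated cells, 0.240 in irradiated cells and 0.201 in control cells, and the irradiated libraries overlapped both other groups. Bcl2l11 to Bcl2a1b averaged 7.77 in triol-treated irradiated cells, 6.81 in irradiated cells and 6.96 in control cells and overlapped in every comparison.

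**Figure D4:**
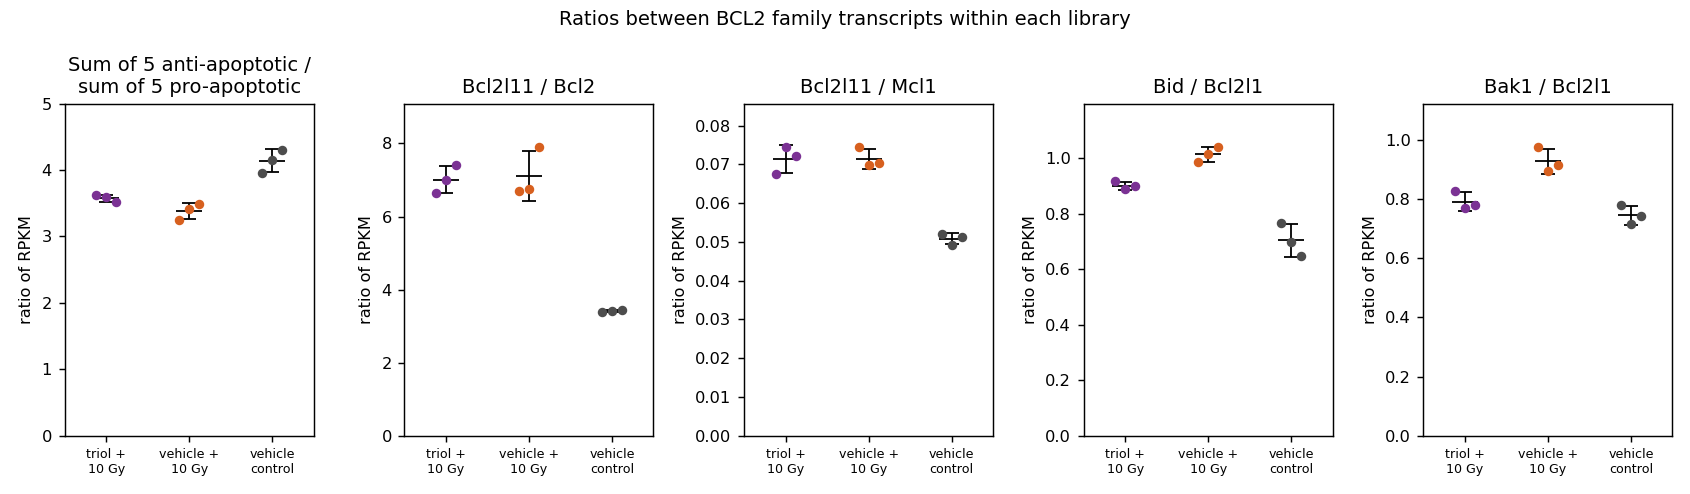
Ratios of RPKM within each library, with axes from 0, for the 5 anti-apoptotic over 5 pro-apoptotic members, summed, and for 4 pairs of partners. Points are libraries, long bars are means and error bars are 1 SD over 3 libraries. Bcl2l11 to Bcl2 lies near 7 in both irradiated groups and near 3.41 in control cells, and for Bid to Bcl2l1 the triol-treated libraries lie between the other groups.

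Of 17 further genes of the wider BCL2 family, 9 passed the filter on low counts. In irradiated against control cells 1 rose, 2 fell and 6 did not pass the test, beside 22.1% of all tested genes called upward and 22.2% downward. Pmaip1, the BH3-only gene for NOXA that binds MCL1 and is a known p53 target, measured 111, 104 and 114 CPM in irradiated libraries, against 93.3, 90.5 and 89.0 CPM in control libraries (log2 fold change 0.27, edgeR adjusted p = 4.45e-06). Bnip3 and Bnip3l, related genes best known for mitophagy, fell by 0.29 and 0.12 on the log2 scale (edgeR adjusted p = 0.000647 and 0.00565), and the Bnip3l call was lost without irradiated replicate 1 (0.0662). The effector Bax measured 47.4, 46.4 and 49.7 CPM in irradiated libraries, against 46.6, 45.1 and 46.3 CPM in control libraries, and its log2 fold change of 0.06 did not pass. Bbc3, which encodes the p53-induced BH3-only protein PUMA, had a log2 fold change of -0.03 and did not pass either. Becn1, Bcl2l13 and Bcl2l12 had log2 fold changes of 0.01, 0.09 and -0.27 without passing. Bcl2l13 did pass with upper quartile scaling (edgeR adjusted p = 0.0353) and with library totals alone (0.026). Bnip3, Becn1 and Bcl2l12 overlap genes on the opposite strand over 22.3%, 43.9% and 33.4% of their exonic bases, and the strand setting is not known. Bcl2a1d, a near-identical copy of Bcl2a1b, stood at 0.47 (edgeR adjusted p = 0.0613) and passed in 5 alternatives, with an adjusted p of 0.0432 when libraries were scaled by their totals alone. The other 8 genes, Bok, Hrk, Bik, Bcl2l10, Bcl2a1a, Bcl2a1c, Bcl2l14 and Bcl2l15, had at most 8 reads in any library. In triol-treated irradiated against control cells, Pmaip1 rose and Bnip3l fell. In triol-treated irradiated against irradiated cells 0 of 9 passed the edgeR test, beside 0.106% of all tested genes. At an unadjusted p under 0.05 stood 1 of the 9, beside 865 of all 11295 tested genes.

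Genes that act after the membrane opens were compared as a list of 16, all of which passed the filter. In irradiated against control cells 3 rose, 1 fell and 12 did not pass, beside the 44.3% of all tested genes called in that comparison. Cycs, the gene for cytochrome c, rose by a log2 fold change of 0.20 (edgeR adjusted p = 7.54e-05). Apaf1, the scaffold of the apoptosome that cytochrome c activates, fell by 0.24 on the log2 scale (edgeR adjusted p = 5.60e-06). Birc3, an inhibitor of apoptosis gene induced by NF-kB, rose by 0.18 (edgeR adjusted p = 0.0462) but did not pass with DESeq2 (adjusted p = 0.0917) or limma-voom (0.0541). In triol-treated irradiated against irradiated cells 0 of 16 passed the edgeR test, beside 0.106% of all tested genes. An unadjusted p under 0.05 was found for 0 of the 16, beside 865 of all 11295 tested genes.

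A list of 17 upstream regulators and partners also passed the filter whole. In irradiated against control cells 7 rose, 3 fell and 7 did not pass, beside 44.3% of all tested genes called, 22.1% upward and 22.2% downward. Ddit3, the stress transcription factor CHOP that is known to raise Bcl2l11 and lower Bcl2, rose by a log2 fold change of 0.38 (edgeR adjusted p = 0.000415). Dynll1, a dynein light chain that holds BIM in place, rose by 0.22 (edgeR adjusted p = 0.00312), and Usp9x, a deubiquitinase that stabilises MCL1, rose by 0.20 (edgeR adjusted p = 3.71e-06). Fbxw7, part of a ubiquitin ligase that targets MCL1, fell by 0.21 on the log2 scale (edgeR adjusted p = 0.00117). Vdac2, a mitochondrial channel that binds BAK1, and the survival kinase Akt1 fell by 0.08 and 0.07 (edgeR adjusted p = 0.0253 and 0.0482), and these calls were lost in 5 and 9 of the 19 alternatives run for each gene. Foxo3 did not pass, at 0.05. In triol-treated irradiated against irradiated cells 0 of 17 passed the edgeR test, beside 0.106% of all tested genes. An unadjusted p under 0.05 was found for 0 of the 17, beside 865 of all 11295 tested genes.

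For the 3 members with the largest changes, the genes with the most alike pattern of log2 CPM over the 9 libraries were listed as a description. The points share libraries and depth, and the 3 groups set much of each correlation. Bcl2 was most like Camk1 (Pearson r 0.993) and Mcat (r 0.991). Bcl2l1 was most like Cd9 (r 0.988) and Eps8 (r 0.986). Bcl2a1b, with its few reads, was most like Dcun1d5 (r 0.929) and Cmbl (r 0.927).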

How the data were processed

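Gene expression was measured in 9 RNA-seq libraries, 3 for each group of BV2 cells. The authors deposited a table of raw counts, a whole number for each gene and library. The submitters' processing notes name STAR 2.7.1a, featureCounts of Subread 1.6.3, fastp 0.18.0 and FastQC, with build GRCm38. Strand and multimapping settings were not given in the sources used here. Every gene identifier was found in GENCODE M21, which gave coordinates, exon lengths and overlaps.

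Groups came from the sample titles. Counts were tested with the quasi-likelihood test of edgeR 4.0.16 (R 4.3.3; TMM, filterByExpr, robust, 1 fit over 9 libraries with 6 residual degrees of freedom), two-sided, with Benjamini-Hochberg adjustment over 11295 genes and a threshold of 0.05. The biological coefficient of variation was 3.18%. CPM is after TMM, and RPKM divides CPM by the union of a gene's exons. Ratios, shares, orders and correlations are descriptions without a test. DESeq2 1.42.0, limma-voom 3.58.1, other scalings and filters, the compared groups alone, a replicate block and leaving out each library were alternatives. The edgeR steps were also run on simulated counts with a common dispersion for all genes, and no result given here rests on that run. Count totals limit the precision. The SE is the absolute log2 fold change divided by the square root of its F statistic. The 95% intervals use that SE with the total degrees of freedom of the fit, which exceed the 6 residual ones.

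All members are named. Of the other lists, every tested family gene is named, and elsewhere the 3 called genes with the largest change by radiation in each direction, except 1 gene that is not reported here. Members, lists and motifs were chosen with earlier results of these data known. Promoter sequences are from RefSeq, build GRCm38.p6, and no protein sequence was used here.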

Additional observations from a re-analysis of the deposited data

How the results depend on the processing

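The count of genes called in triol-treated irradiated against irradiated cells, 12, was 19 with DESeq2, 36 without a filter on low counts, 22 with only those 2 groups in the fit, 22 with a replicate block and 6 to 19 when 1 library was left out. The counts in the comparisons with control cells stayed within 1.5 times of their values under every alternative (4266 to 4991 for irradiated and 4134 to 4989 for triol-treated irradiated cells when 1 library was left out). The log2 balance ratio of irradiated to control cells, -0.29, was -0.37 on plain CPM and -0.39 without Mcl1. That of triol-treated irradiated to irradiated cells, 0.08, was 0.14 without Mcl1, and that of triol-treated irradiated to control cells, -0.21, was -0.31 on plain CPM. Without 1 library these differences ranged from -0.32 to -0.26, from 0.05 to 0.10 and from -0.24 to -0.18. The cause was not tested, beyond Mcl1 holding most of the anti-apoptotic sum. No pairing by replicate number was seen: deviations of same-numbered libraries correlated between -0.0515 and 0.0409. Those of differently numbered libraries correlated between -0.0627 and 0.0543. These values cannot show whether same-numbered libraries were prepared together. With the replicate block 5, 0 and 5 members were called, as without it, where 44.3%, 0.106% and 43.3% of all tested genes were called. Without 1 library, 4 to 5, 0 and 4 to 6 members were called in irradiated against control, triol-treated irradiated against irradiated, and triol-treated irradiated against control cells. Over all tested genes the calls in the same fits were 4266 to 4991, 6 to 19 and 4134 to 4989.

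Among the values given, signs turned only for genes that were not called. In irradiated against control cells, Bcl2l2 was 0.0075 with upper quartile scaling and 0.014 with library totals, Bbc3 was 0.0034 with library totals and Becn1 was -0.0038 without a filter. Bmf in triol-treated irradiated against irradiated cells was -0.0042, -0.00097 and -0.00036 with upper quartile scaling, library totals and no filter. When 1 library was left out, the log2 fold changes of irradiated to control cells ranged from -0.052 to 0.013 for Bcl2l2, -0.19 to 0.026 for Bad, -0.051 to 0.12 for Bmf, -0.086 to 0.0070 for Bbc3 and -0.021 to 0.029 for Becn1. Those of triol-treated irradiated to irradiated cells ranged from -0.019 to 0.099 for Bcl2, -0.10 to 0.11 for Bad and -0.056 to 0.11 for Bmf, and that of Bmf in triol-treated irradiated to control cells from -0.0081 to 0.15.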
